A study of Homo sapiens with 15 samples.

Results

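CD9 and 8 other tetraspanin genes (CD63, CD81, CD82, CD151, TSPAN3, TSPAN4, TSPAN9 and TSPAN14) were followed in HT1080 cells, a human fibrosarcoma cell line. They were picked by gene name and make up 9 of the 60675 genes in the count table, and 9 of the 33 tetraspanin genes listed there. CD9 was chosen for its 0 counts in one cell line, so its levels are given as a description with no test. Levels are counts per 1000000 counts of a library (CPM), with the library's total scaled for comparison between libraries. In these data CD9 RNA was at 10.0 CPM in wild-type (WT) cells on one inhibitor and at 3.83 CPM in WT cells on the other. It was at or near 0 in 2 of the 3 mutant lines. The other 8 genes were detected in every library, and 1 of them, TSPAN4, passed the test in 2 of the 5 comparisons. Neither call held with offsets for GC content or in a fit of only the libraries compared.

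RNA was sequenced from 15 libraries in 5 groups of 3 replicates, and every group had received a lysine deacetylase (KDAC) inhibitor. The 6CD1m cells carry H216A in KDAC6, which inactivates its first catalytic domain, and the 6CD2m cells carry H611A in KDAC6, which inactivates its second. Both lines were treated with 1 μM Tubastatin A, a KDAC6 inhibitor, for 2 days. The 8CDm cells carry the inactivating H143A change in KDAC8 and were treated with 5 μM PCI-34051, a KDAC8 inhibitor, for 2 days. The 2 remaining groups are WT cells grown for 14 days with the same dose of Tubastatin A or of PCI-34051. Cell line and duration therefore change together between a mutant group and a WT group, and cannot be told apart. Untreated cells are not analysed here. Each mutation is represented by 1 cell line, so a property of the line and the effect of its mutation cannot be told apart either.

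Tetraspanins are small proteins that cross the membrane repeatedly and gather integrins, growth factor precursors, proteases and immunoglobulin superfamily proteins into shared membrane domains. CD9, CD63 and CD81 are widely used as markers of exosomes. CD9 acts in cell adhesion, motility and the fusion of gametes, CD82 is known as a suppressor of metastasis, and CD151 binds the integrins that attach cells to laminin.

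The CD9 gene (ENSG00000010278) spans chr12:6199715-6238271 on the plus strand of GRCh38, in GENCODE 29. The sequence upstream of its transcript CD9-201 is shown because CD9 is the member whose level differs most between the groups. The part printed, from RefSeq on GRCh38.p14, is chr12:6200150-6200315 on the plus strand. It ends 85 bases before the start of that transcript at 6200400, and lies inside the CD9 gene as annotated, since other CD9 transcripts start further upstream. Its 20 CpG dinucleotides, the sites of DNA methylation in human cells, are in capitals.
CD9 upstream: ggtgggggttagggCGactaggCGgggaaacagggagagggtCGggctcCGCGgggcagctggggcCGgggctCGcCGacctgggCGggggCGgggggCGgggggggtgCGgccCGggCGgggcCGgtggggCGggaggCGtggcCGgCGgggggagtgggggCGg
The whole window of 250 bases before that start holds 28 CpG, and 15.9% of the 35116 windows of this length in the RefSeq table hold as many or more (median 11). It also holds GGGCGG on one strand or the other, as do 42.6% of all the windows. CD9 has 4 such windows, for different transcripts, which hold 10, 28, 29 and 1 CpG. The counts do not measure methylation, and these features are descriptions of the sequence. Of the 9 members, 5 have a window in that table.

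Depth and cell type markers were checked first. Library totals on genes ran from 10932437 to 19983699 counts (median 17551869), and the libraries of 6CD1m cells were the smallest. Replicate 1 stood apart from replicates 2 and 3 in 6CD1m cells and in both WT groups, with a mean chi-square per gene of 15.5 to 43.1 against them, where replicates 2 and 3 of these groups had 4.58 to 6.79 between themselves. Some results that rest on these libraries, among them those of CD151, CD63 and TSPAN3, are given with and without a replicate 1. The 7 mesenchymal markers examined, led by VIM, summed to between 4049 and 4505 CPM in the 6CD2m libraries and to between 5152 and 7320 CPM in all others, although S100A4 was at 0.837 CPM or less. The 6CD2m libraries, in which CD9 had 0 counts, were thus lowest for this list, and its part in the differences was not tested. Of the 5 epithelial markers 4 were at or under 3 counts in every library, and CLDN4 was at 3.76 to 13.1 CPM. Of the 4 blood markers 3 were at or under 3 counts. The 3 endothelial markers summed to between 2.76 and 3.49 CPM in the 6CD2m and 8CDm libraries, and to at most 1.297 CPM in the others. This sum was thus highest in the 2 groups with CD9 at or near 0, while WT cells on Tubastatin A, highest for CD9, were above WT cells on PCI-34051 for it too. The 3 markers did not move together. VWF had a mean of 1.43 CPM in 6CD2m cells, but 0.309 CPM in 8CDm cells and 0.473 CPM in WT cells on Tubastatin A. PECAM1 was at 0.583 CPM or less in every library, so the sum in 8CDm cells rested mostly on CDH5. The part of these markers in the CD9 levels was not tested.

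CD9 was counted in all 9 libraries of the WT and 6CD1m groups and in 1 of the 6 libraries of 6CD2m and 8CDm cells. In WT cells on Tubastatin A the 3 libraries had 181, 159 and 169 CD9 counts, or 10.0, 10.3 and 9.76 CPM. WT cells on PCI-34051 had 91, 49 and 55 counts, or 4.85, 3.10 and 3.54 CPM. The 6CD1m cells had 41, 46 and 68 counts, or 3.45, 3.23 and 4.74 CPM. These groups form 2 levels, one in WT cells on Tubastatin A and a lower one that WT cells on PCI-34051 and 6CD1m cells share, since the ranges of the last 2 overlap. In 8CDm cells the counts were 2, 0 and 0. In 6CD2m cells they were 0, 0 and 0. The 8CDm and 6CD2m groups could not be told apart at this depth, because a count of 0 allows up to 3 counts in a library, which is 0.165 CPM on average in the 6CD2m libraries.

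**Figure D1:**
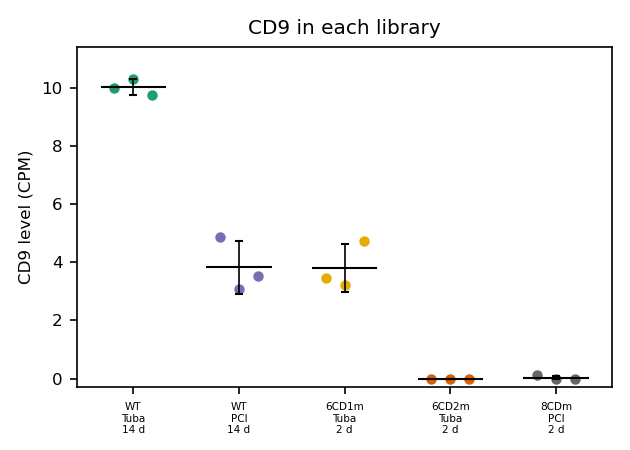
CD9 level in CPM (y axis) in each of the 15 libraries, by group (x axis, with inhibitor and days of treatment; Tuba is Tubastatin A and PCI is PCI-34051). Points are libraries, horizontal lines the mean and error bars the SD of 3 libraries. WT cells on Tubastatin A lie between 9.76 and 10.3 CPM, WT cells on PCI-34051 and 6CD1m cells between 3.10 and 4.85 CPM, and 6CD2m and 8CDm cells at or near 0.

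The mean CD9 level was 10.0 ± 0.273 CPM (SD, n = 3) in WT cells on Tubastatin A. With PCI-34051 it was 3.83 ± 0.913 CPM (n = 3) in WT cells, and it was 3.81 ± 0.816 CPM (n = 3) in 6CD1m cells. Against WT cells on the same inhibitor, CD9 was at least 60.6-fold lower in 6CD2m cells, with 3 counts in each library taken as the floor. In 8CDm cells, where the 2 counts came from 1 library, it was 106-fold lower by the counts summed over the libraries, with a 95% counting interval of 29 to 884. Between the KDAC6 lines, which had the same inhibitor, dose and duration, it was at least 23.0-fold lower in 6CD2m than in 6CD1m cells. The 6CD1m cells were 2.61-fold lower than WT cells on Tubastatin A (interval 2.18 to 3.15). WT cells on Tubastatin A were 2.57-fold higher than WT cells on PCI-34051 (interval 2.18 to 3.05). These intervals and floors cover counting error only, not the spread between cultures. In RNA from bulk cultures, fewer cells with CD9 RNA and less CD9 RNA per cell cannot be told apart.

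Levels of different genes were compared per length, as CPM per kb of exon. The length is that of all annotated exons of a gene merged, such as 2633 bases for CD63 and 17888 for TSPAN14. It is not that of the transcripts present, so ranks and shares depend on the annotation. On this scale CD9 was a minor tetraspanin even where it was highest. It ranked 13th of the 33 genes in WT cells on Tubastatin A, at 2.41 CPM per kb, and held 0.884% ± 0.0853 (SD, n = 3) of the summed level of the family. It ranked 15th in WT cells on PCI-34051, at 0.920 CPM per kb, and 14th in 6CD1m cells, at 0.914 CPM per kb. The 9 members together held between 85.1% and 89.6% of the family's summed level in the group means. The sum itself ran from 225 ± 18.9 CPM per kb in 8CDm cells to 274 ± 22.7 CPM per kb in WT cells on Tubastatin A (n = 3 each).

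CD151 and CD63 were the most abundant members in all 5 groups on the per-length scale. CD151 (ENSG00000177697) led in both WT groups and in 6CD1m cells, with 30.7% ± 1.02 (SD, n = 3) of the family's level in 6CD1m cells. CD63 (ENSG00000135404), a protein of late endosomes and lysosomes, led in 6CD2m and 8CDm cells, with 26.8% ± 2.25 and 31.2% ± 0.831 (n = 3 each). CD81 (ENSG00000110651) ranked next in every group. TSPAN4 and TSPAN3 took the following places, TSPAN4 ahead in 6CD1m cells and in WT cells on PCI-34051 and TSPAN3 ahead in the other groups. No test was made of these orders.

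Differences of the 8 members other than CD9 were assessed in 1 model of all 15 libraries by the quasi-likelihood test of edgeR. The p-values were adjusted by the Benjamini-Hochberg method over the 19535 genes that passed a filter on low counts, and the false discovery rate of 0.001 was that of the study. All 8 passed the filter. Log2 fold changes below are of CPM, and are given with their standard error (SE) and adjusted p.

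**Figure D2:**
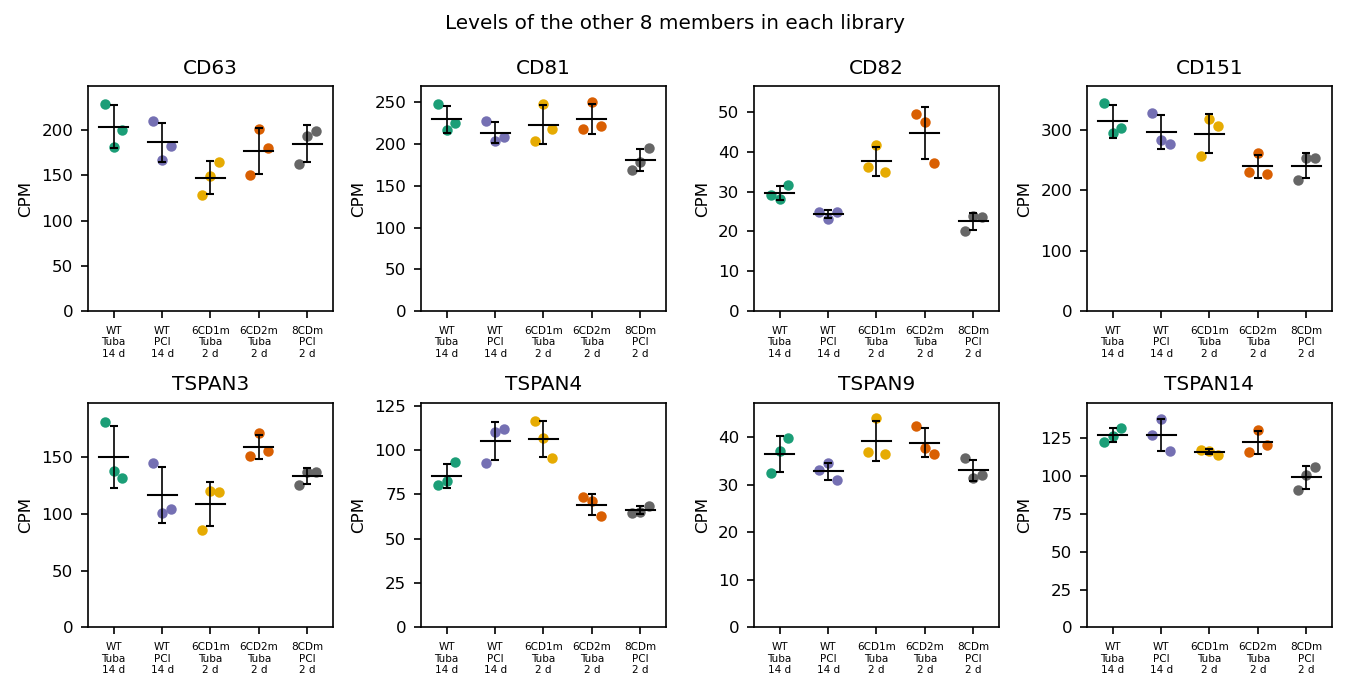
Levels in CPM (y axes, from 0) of CD63, CD81, CD82, CD151, TSPAN3, TSPAN4, TSPAN9 and TSPAN14 in each library, by group (x axes). Points are libraries, horizontal lines the mean and error bars the SD of 3 libraries. TSPAN4 lies between 62.6 and 73.8 CPM in 6CD2m and 8CDm cells and between 80.5 and 116 CPM in the other groups, and CD82 is highest in 6CD2m cells.

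TSPAN4 (ENSG00000214063), a tetraspanin that drives the formation of migrasomes on the retraction fibres of moving cells, was the member that passed the test. In 8CDm cells it had 64.6, 65.1 and 68.7 CPM, and in WT cells on PCI-34051 92.6, 110.2 and 112 CPM. The groups did not overlap. The log2 fold change was -0.67 (SE 0.10, edgeR adjusted p = 2.0e-04). In 6CD2m cells it had 73.8, 71.2 and 62.6 CPM, and in 6CD1m cells 116, 107 and 95.6 CPM. All 6CD2m libraries lay below all 6CD1m libraries, with a log2 fold change of -0.62 (SE 0.10, edgeR adjusted p = 3.1e-04). WT cells on Tubastatin A had 80.5, 82.7 and 93.1 CPM, between these groups. Against them the log2 fold change was -0.30 in 6CD2m cells (SE 0.10, edgeR adjusted p = 0.035) and 0.31 in 6CD1m cells (SE 0.10, edgeR adjusted p = 0.067), short of the threshold. TSPAN4 has the highest GC content of the 9 members, 64.5% of its exon bases. With offsets for GC content in each library its log2 fold change was -0.21 in 8CDm cells (edgeR adjusted p = 0.078) and -0.26 between the KDAC6 lines (edgeR adjusted p = 0.027), and neither then passed. With the replicate number as a block, the difference between the KDAC6 lines kept its size (log2 fold change -0.62) and had an edgeR adjusted p of 0.0014. Fitted with only the libraries compared, both differences also missed the threshold (-0.65 in 8CDm cells, edgeR adjusted p = 0.0019, and -0.60 between the KDAC6 lines, edgeR adjusted p = 0.0052). Without 1 library the call held in 2 of 6 fits in 8CDm cells (log2 fold changes -0.74 to -0.62) and in 1 of 6 between the KDAC6 lines (-0.64 to -0.55).

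CD82 (ENSG00000085117) was just short of the threshold in 6CD2m cells. These had 49.7, 47.5 and 37.3 CPM, and WT cells on Tubastatin A had 29.2, 28.3 and 31.7 CPM. The groups did not overlap, and the log2 fold change was 0.59 (SE 0.12, edgeR adjusted p = 0.0012). In 6CD1m cells CD82 was at 36.2, 41.8 and 34.9 CPM, also above the WT range, with a log2 fold change of 0.34 (SE 0.12, edgeR adjusted p = 0.076). In 8CDm cells it was at 20.2, 23.8 and 23.6 CPM, overlapping the 25.0, 23.3 and 24.9 CPM of WT cells on PCI-34051. The difference between the effect in 6CD2m cells and that in 8CDm cells was 0.71 on the log2 scale (SE 0.17, edgeR adjusted p = 0.0078, 95% interval 0.35 to 1.07), which did not pass. In 6 of 15 alternative analyses of the 6CD2m difference CD82 did pass, and its adjusted p ran from 7.0e-06 to 0.0086. It passed with upper-quartile scaling and without 6CD2m replicate 3 (log2 fold change 0.71).

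CD151 had lower mean levels in 6CD2m and 8CDm cells than in their WT groups, without passing. It was at 230.1, 261.5 and 226.7 CPM in 6CD2m cells and at 217, 253 and 253 CPM in 8CDm cells. WT cells on Tubastatin A had 345, 295 and 303 CPM, and WT cells on PCI-34051 had 328, 283 and 276 CPM. The groups did not overlap in either comparison, with log2 fold changes of -0.39 (SE 0.11, edgeR adjusted p = 0.013) and -0.30 (SE 0.11, edgeR adjusted p = 0.048). Without replicate 1 of the WT group they were -0.28 (edgeR adjusted p = 0.11) and -0.21 (edgeR adjusted p = 0.16). Upper and lower limits of the 95% intervals were -0.16 and -0.63 in 6CD2m cells and -0.06 and -0.53 in 8CDm cells. Over 15 alternative analyses CD151 passed in none, and its log2 fold change ran from -0.46 to -0.28 in 6CD2m cells. In 8CDm cells it ran from -0.34 to 0.06, so the lower level there did not hold in all of them.

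TSPAN14 (ENSG00000108219) belongs to the group of tetraspanins that escort the protease ADAM10 to the cell surface. It was at 91.0, 101 and 106 CPM in 8CDm cells and at 127, 138 and 117 CPM in WT cells on PCI-34051. These did not overlap, and the log2 fold change was -0.36 (SE 0.09, edgeR adjusted p = 0.0052), short of the threshold by edgeR, while DESeq2 called it (log2 fold change -0.35, adjusted p = 9.1e-04). In the KDAC6 lines it was within 0.13 of WT cells on the log2 scale. CD63 was lowest in 6CD1m cells, at 129, 149.5 and 165 CPM against 229, 182 and 201 CPM in WT cells on Tubastatin A (log2 fold change -0.47, SE 0.14, edgeR adjusted p = 0.044, and -0.38 without 6CD1m replicate 1, adjusted p = 0.17). TSPAN3 (ENSG00000140391) was at 150.3, 170.4 and 155 CPM in 6CD2m cells against 85.9, 120.0 and 119 CPM in 6CD1m cells (log2 fold change 0.55, SE 0.16, edgeR adjusted p = 0.014, and 0.41 without 6CD1m replicate 1, adjusted p = 0.062).

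CD81 and TSPAN9 (ENSG00000011105) passed the test in none of the 5 comparisons by edgeR, nor by DESeq2. CD81, which is also the receptor through which hepatitis C virus enters liver cells, lay between 204 and 250.3 CPM in the 4 groups other than 8CDm and between 169 and 195 CPM in 8CDm cells (log2 fold change against WT cells -0.24, SE 0.10, edgeR adjusted p = 0.069). Over 15 alternative analyses this fold change of CD81 ran from -0.30 to 0.10, so the lower level did not hold in all of them. TSPAN9, known from platelets, lay between 31.0 and 44.0 CPM over all 15 libraries. Its log2 fold changes ran from -0.01 to 0.15 in the 5 comparisons, and the 95% intervals reached no further than -0.24 and 0.38. These intervals leave room for small differences.

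**Figure D3:**
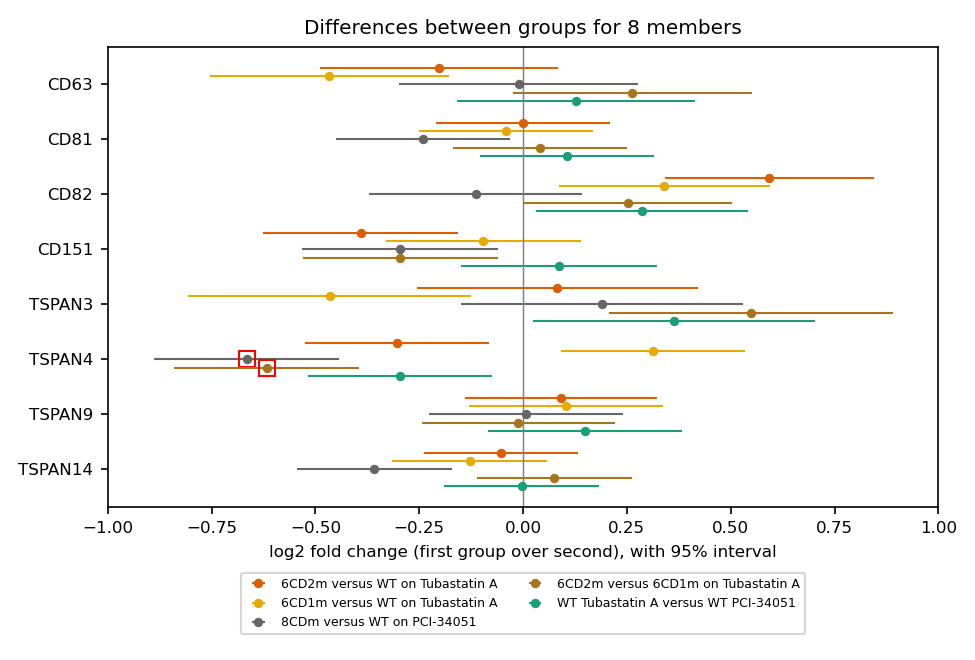
Log2 fold changes (x axis, first group over second) of the 8 members other than CD9 (y axis) in 5 comparisons, shown by colour, with 95% intervals as bars. Red squares mark the 2 values past the false discovery rate of 0.001, both of TSPAN4, at -0.67 and -0.62, and CD82 at 0.59 in 6CD2m against WT cells is the highest value.

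The counts of members were read against those of all genes. In 6CD2m against WT cells on Tubastatin A, 0 of the 8 members passed by edgeR's test, while 11.8% of all tested genes did. There 3 members had an adjusted p below 0.05, against 32.8% of all genes, 3 had an unadjusted p below 0.05, and DESeq2 called 1. In 8CDm against WT cells on PCI-34051, 1 of 8 passed against 11.0% of all genes, and 3 had an adjusted p below 0.05 against 36.1%. Between the KDAC6 lines 1 of 8 passed against 13.2%, and 3 had an adjusted p below 0.05 against 40.3%. In 6CD1m against WT cells edgeR called 0 of 8 and 0.793% of all genes. There 1 member had an adjusted p below 0.05, against 9.40% of all genes, 4 had an unadjusted p below 0.05, and DESeq2 called 0. Between the WT groups edgeR called 0 of 8 members and 0.420% of all genes, with 0 members at an adjusted p below 0.05 against 9.48% of all genes, 3 at an unadjusted p below 0.05 and 0 called by DESeq2. For the difference between the 6CD2m and 8CDm effects edgeR called 0 of 8 members and 5.16% of all genes, with 1 member at an adjusted p below 0.05 against 19.3%, 3 at an unadjusted p below 0.05 and 1 called by DESeq2.

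Libraries of the groups did not overlap for 3 of the 8 members in 6CD2m against WT cells, where this held for 50.0% of all genes. They did not for 5 of 8 in 6CD1m against WT cells (31.0% of all genes), 4 of 8 in 8CDm against WT cells (48.1%), 2 of 8 between the KDAC6 lines (51.7%) and 1 of 8 between the WT groups (25.9%). With 8 genes, 1 member is 1 in 8, and none of these shares is read as a property of the members. The median log2 fold change of the 8 members was -0.03 in 6CD2m, -0.07 in 6CD1m and -0.18 in 8CDm cells against their WT groups, beside -0.01, -0.01 and -0.04 over all genes. The comparisons of 6CD2m and 6CD1m with WT cells share the same WT libraries.

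The members lie in part next to other tetraspanin genes. CD151 at chr11:832843-839831 and TSPAN4 at chr11:842808-867116 are separated by 2976 bases, both on the plus strand. CD81 at chr11:2376177-2397419 lies 58.0 kb from TSPAN32. CD82 at chr11:44564427-44620363 lies 106 kb from TSPAN18 at chr11:44726465-44932421. TSPAN9 and CD9 share a chromosome arm at a distance of 2.91 Mb. Over the 15 libraries the log2 levels of CD82 and TSPAN18 correlated with a Pearson r of 0.941, those of CD151 and TSPAN4 with 0.564, those of CD81 and TSPAN32 with 0.132 and those of TSPAN9 and CD9 with 0.022. The libraries share groups of 3, so these are descriptions.

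TSPAN18, which is reported to interact with the calcium channel Orai1, was called in each of the 4 comparisons that involve a mutant line. It had 32.6, 33.3 and 29.6 CPM in 6CD2m cells and 11.5, 12.2 and 14.3 CPM in 6CD1m cells. WT cells on Tubastatin A had 2.38, 3.24 and 3.06 CPM, WT cells on PCI-34051 had 2.19, 2.21 and 1.42 CPM, and 8CDm cells had 0.399, 0.650 and 0.376 CPM. The ranges overlapped in no comparison of a mutant line. TSPAN18 rose in 6CD2m cells by 3.46 (SE 0.18, edgeR adjusted p = 3.1e-09) and in 6CD1m cells by 2.13 (SE 0.18, edgeR adjusted p = 5.6e-06) on the log2 scale, relative to WT cells. It fell by 2.02 in 8CDm cells (SE 0.26, edgeR adjusted p = 4.0e-05). Between the KDAC6 lines the log2 fold change was 1.33 (SE 0.16, edgeR adjusted p = 1.8e-05). The effects in 6CD2m and 8CDm cells differed by 5.48 (SE 0.31, edgeR adjusted p = 1.2e-08).

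**Figure D4:**
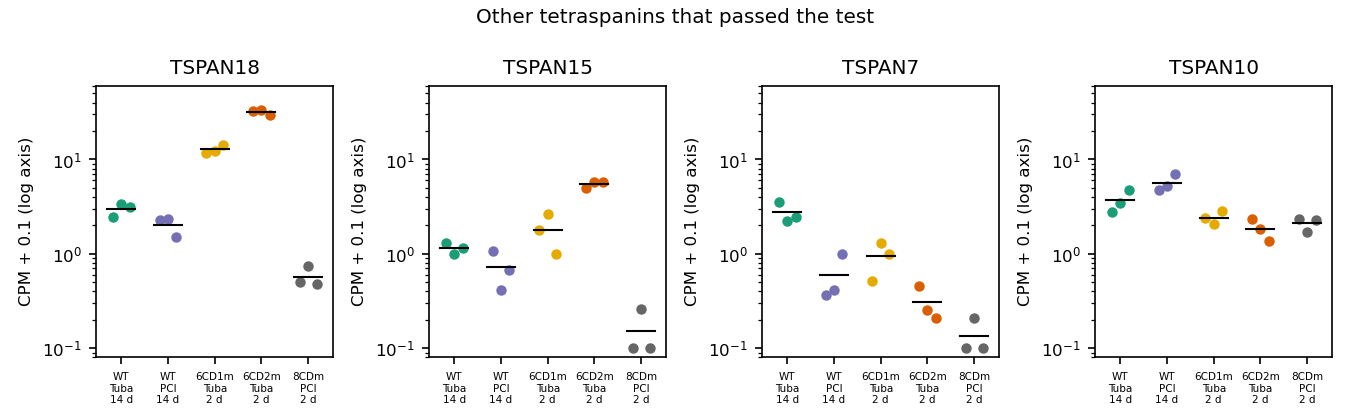
Levels of TSPAN18, TSPAN15, TSPAN7 and TSPAN10 in each library, as CPM + 0.1 on a log axis (y axes), by group (x axes). Points are libraries and horizontal lines group means. TSPAN18 spans from 0.475 CPM on average in 8CDm to 31.8 CPM in 6CD2m cells, and TSPAN15 is highest in 6CD2m cells.

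Of the 24 other tetraspanin genes, 17 passed the filter on low counts. In 6CD2m against WT cells, where 11.8% of all genes were called, 2 of them rose, TSPAN18 and TSPAN15, and 1 fell, TSPAN7. When 1 library was left out, 1 or 2 of these were called. TSPAN18 kept its call in 6 of 6 such fits, TSPAN7 in 2 and TSPAN15 in 0, with TSPAN15 at a log2 fold change of 2.28 to 2.49 and an edgeR adjusted p of up to 0.0052. TSPAN15, an ADAM10 partner like TSPAN14, was at 4.91, 5.62 and 5.62 CPM in 6CD2m cells and at 1.22, 0.908 and 1.04 CPM in WT cells (log2 fold change 2.34, SE 0.44, edgeR adjusted p = 8.1e-04). In 8CDm cells TSPAN15 had 3 counts in all, against 32 in WT cells on PCI-34051, which is 11.6-fold lower with a counting interval of 3.64 to 59.4. TSPAN7, best known from neurons, had 62, 33 and 41 counts in WT cells on Tubastatin A and 6, 3 and 2 in 6CD2m cells (log2 fold change -3.66, SE 0.62, edgeR adjusted p = 3.2e-04). In 8CDm against WT cells 2 fell (11.0% of all genes were called), TSPAN18 and TSPAN10. TSPAN10 was at 2.02 ± 0.338 CPM (SD, n = 3) in 8CDm cells, and WT cells on PCI-34051 had 5.55 ± 1.19 CPM (log2 fold change -1.46, SE 0.27, edgeR adjusted p = 7.6e-04). TSPAN10 kept its call in 1 of the 6 fits without 1 library, that without WT replicate 1. In 6CD1m against WT cells and between the KDAC6 lines, TSPAN18 was the one gene called (0.793% and 13.2% of all genes). None of the 17 was called between the WT groups by edgeR, where 5 had an unadjusted p below 0.05 and DESeq2 called 2. The median log2 fold change of the 17 was 0.54 in 6CD2m, -0.28 in 6CD1m and -0.31 in 8CDm cells against WT cells.

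Besides TSPAN18, 4 tetraspanins outside the 9 members had a mean of at least 10 CPM in some group. TSPAN5 was at 74.9 ± 9.70 CPM (n = 3) in WT cells on Tubastatin A and 51.9 ± 4.97 CPM in 6CD2m cells (log2 fold change -0.53, edgeR adjusted p = 0.014). TSPAN17 stayed between 34.6 and 43.1 CPM in the group means. TSPAN31 was at 27.6 ± 0.618 CPM in 6CD2m and 31.0 ± 5.30 CPM in 8CDm cells, and between 18.6 and 21.2 CPM in the other groups (n = 3 each). TSPAN6 was at 16.7 ± 1.36 CPM in 6CD2m and 15.9 ± 2.65 CPM in 8CDm cells, and between 7.53 and 11.5 CPM in the others. None of these 4 passed in any of the 5 comparisons by edgeR's test, while DESeq2 called TSPAN31 in 6CD2m (edgeR log2 fold change 0.57) and 8CDm cells (0.59) against WT cells.

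Proteins known to sit with tetraspanins at the cell surface were read next, from a list of 21 genes, of which 20 were tested. In 6CD2m against WT cells 2 of the 20 rose and 1 fell, beside 11.8% of all genes. ITGB4, the integrin β4 subunit of the laminin receptor that pairs with CD151, was at 12.3 ± 0.594 CPM (SD, n = 3) in 6CD2m cells and 3.09 ± 0.446 CPM in WT cells (log2 fold change 1.99, SE 0.18, edgeR adjusted p = 9.7e-07). It also rose in 6CD1m cells, the one gene of the list called there (log2 fold change 1.62, SE 0.18, edgeR adjusted p = 9.8e-05), though not without WT replicate 1 or 2 (edgeR adjusted p = 0.0011 at most). CLDN1, a claudin of tight junctions, had 117 counts in the 6CD2m libraries and 2 in WT cells on Tubastatin A. This is 54.4-fold higher with a counting interval of 14.7 to 455, and CLDN1 kept its call in 2 of the 6 fits without 1 library. It had at most 2 counts in any library outside 6CD2m cells, and so passed the filter on low counts through that group alone. Its call is therefore a description, although it is among the 2 genes that rose. EGFR, the receptor of epidermal growth factor, was at 179 ± 10.9 CPM in 6CD2m and 389 ± 41.7 CPM in WT cells (n = 3 each), and its log2 level fell by 1.12 (edgeR adjusted p = 9.1e-06). In 8CDm against WT cells 1 of the 20 rose, ADAM17, the protease that sheds growth factor precursors (log2 fold change 0.94, edgeR adjusted p = 3.1e-04), and none fell, where 11.0% of all genes were called. This count rested on single libraries. It was 5 without WT replicate 1 and 0 without any other one of the 6 libraries, with ADAM17 then at 0.83 to 0.99.

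Between the KDAC6 lines 5 of the 20 surface genes were higher in 6CD2m cells and 1 was lower, EGFR (log2 fold change -0.82, edgeR adjusted p = 1.7e-04), beside 13.2% of all genes called. The largest among the higher ones were CLDN1, with 117 counts against 1, and MET, the receptor of hepatocyte growth factor (log2 fold change 1.44, edgeR adjusted p = 6.4e-04). CLDN1 is among the 5 although it passed the filter on low counts through 6CD2m cells alone. HBEGF, a growth factor precursor that associates with CD9 (log2 fold change 1.26, edgeR adjusted p = 2.2e-05), ADAM17 (0.93) and IGSF8, a direct partner of CD9 and CD81 (0.84), were also higher. EGFR and IGSF8 are named here although the limit of 4 genes per list left them out. Of these calls, HBEGF kept its own in 6 of 6 fits without 1 library, IGSF8 in 5, EGFR, CLDN1 and ADAM17 in 2 each and MET in 1. The 6 called genes became 2 without 6CD1m replicate 2 or 6CD2m replicate 2 or 3, 3 without 6CD1m replicate 1 and 4 without 6CD2m replicate 1. The median of the 20 was 0.67 in this comparison, beside -0.05 over all genes, and 0.55 without 6CD1m replicate 1, beside -0.03. In that library MET was at 127 CPM, and in the other 6CD1m libraries at 239 and 276 CPM. Against WT cells on Tubastatin A the median of the 20 was 0.24 in 6CD2m and -0.48 in 6CD1m cells, beside -0.01 over all genes in both. None of the 20 was called between the WT groups by edgeR, where 6 had an unadjusted p below 0.05 and DESeq2 called 1.

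Of 14 genes of vesicle formation and cargo, all tested, 3 fell in 6CD2m against WT cells and none rose, beside 11.8% of all genes called. RAB27B, a small GTPase of exosome secretion, was at 12.3 ± 0.163 CPM in 6CD2m and 52.6 ± 12 CPM in WT cells on Tubastatin A (SD, n = 3 each; log2 fold change -2.10, SE 0.23, edgeR adjusted p = 5.4e-06). VPS4B, an ATPase of the ESCRT machinery, fell by 1.01 (edgeR adjusted p = 4.4e-05), and TIMP1, a protease inhibitor that binds CD63, fell by 0.62 (edgeR adjusted p = 1.5e-04) on the log2 scale. RAB27B and VPS4B kept their calls in 6 of 6 fits without 1 library and TIMP1 in 2. In 8CDm against WT cells RAB27B fell by 1.20 (edgeR adjusted p = 7.6e-04) and TIMP1 by 1.13 (edgeR adjusted p = 6.9e-07), 2 of the 14 beside 11.0% of all genes. There TIMP1 kept its call in 6 of 6 fits without 1 library and RAB27B in 1, with values from -1.37 to -0.90. In 6CD1m cells RAB27B was at 14.7, 17.7 and 23.7 CPM, below the 43.4 to 66.1 CPM of WT cells on Tubastatin A. Its log2 fold change there, -1.49 (SE 0.22), just missed the threshold (edgeR adjusted p = 0.00102), and DESeq2 called it. None of the 14 was called in 6CD1m against WT cells, between the KDAC6 lines or between the WT groups by edgeR. In these, 8, 11 and 4 had an unadjusted p below 0.05, and DESeq2 called 1, 3 and 0.

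Of 6 genes linked to migrasomes, NDST1, an enzyme of heparan sulfate synthesis, fell in 6CD2m against WT cells (log2 fold change -0.54, edgeR adjusted p = 1.3e-04). Between the KDAC6 lines NDST1 was lower in 6CD2m cells (-0.75, edgeR adjusted p = 6.5e-06), while CPQ (1.18, edgeR adjusted p = 4.9e-04) and EOGT (0.71, edgeR adjusted p = 5.7e-04) were higher. These calls, 1 and 3 of 6 beside 11.8% and 13.2% of all genes, became 0 to 1 and 1 to 3 without 1 library, and the one that held in all such fits was NDST1 between the KDAC6 lines. None of the 6 was called in 6CD1m or 8CDm against WT cells or between the WT groups by edgeR, where 3, 2 and 2 had an unadjusted p below 0.05 and DESeq2 called 0, 0 and 1.

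The tested genes around CD9 were not all at 0 with it. Within 500 kb of CD9, 21 protein-coding genes are annotated, 18 of them with a mean of at least 1 CPM in some group, and 19 were tested. GAPDH, an enzyme of glycolysis and the most abundant of them, was at 2922 ± 14.0 CPM (SD, n = 3) in 6CD2m and 2935 ± 76.1 CPM in 8CDm cells, against 4715 ± 330 CPM in WT cells on Tubastatin A and 4063 ± 588 CPM in WT cells on PCI-34051. TNFRSF1A and LTBR, receptors of the tumour necrosis factor family, had means between 98.5 and 163 CPM in all 5 groups, and CHD4, a chromatin remodeller, between 671 and 802 CPM. ANO2, a calcium-gated chloride channel 253483 bases from CD9, went the other way to CD9, with 6.85 ± 1.64 CPM in 6CD2m and 2.11 ± 0.502 CPM in 8CDm cells against means of 0.452 CPM or less elsewhere. VWF, 74945 bases from CD9, was at 1.43 ± 0.358 CPM in 6CD2m cells and at means of 0.473 CPM or less in the other groups. SCNN1A was lower in 8CDm cells (0.278 ± 0.156 CPM) than in WT cells on PCI-34051 (0.914 ± 0.380 CPM, log2 fold change -1.69, edgeR adjusted p = 0.0099). In 6CD2m against WT cells the log2 fold change of GAPDH was -0.69 (edgeR adjusted p = 0.0012), and DESeq2 called it. CD27 and LPAR5, which were not tested, had means of at most 0.61 CPM in every group.

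In 6CD2m against WT cells 2 of the 19 rose, ANO2 (log2 fold change 4.51, edgeR adjusted p = 4.8e-06) and ZNF384 (0.54, edgeR adjusted p = 4.5e-04), and 1 fell, NCAPD2, a condensin subunit (-0.85, edgeR adjusted p = 1.1e-05), beside 11.8% of all genes. ZNF384 kept its call in 1 of the 6 fits without 1 library, and ANO2 and NCAPD2 in all 6. ANO2 also rose in 8CDm against WT cells (4.61, edgeR adjusted p = 5.1e-05) and TNFRSF1A fell (-0.63, edgeR adjusted p = 3.9e-05), both also in each of the 6 fits without 1 library, beside 11.0% of all genes. In the WT and 6CD1m groups ANO2 had means of 0.452 CPM or less, and so passed the filter on low counts through 6CD2m and 8CDm cells alone. Its calls are therefore a description, although it is counted among the genes that rose. In WT cells on PCI-34051 its mean was 0.0744 CPM, below the 0.181 CPM of 3 counts in a library. None was called in 6CD1m against WT cells or between the WT groups by edgeR, where 5 and 10 had an unadjusted p below 0.05 and DESeq2 called 0 and 3. The median log2 fold change of the 19 was 0.09 in 6CD2m and -0.12 in 8CDm cells against WT cells. The other genes with at least 1 CPM in some group were PLEKHG6, TAPBPL, VAMP1, MRPL51, IFFO1, NOP2, ING4, PIANP and COPS7A.

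**Figure D5:**
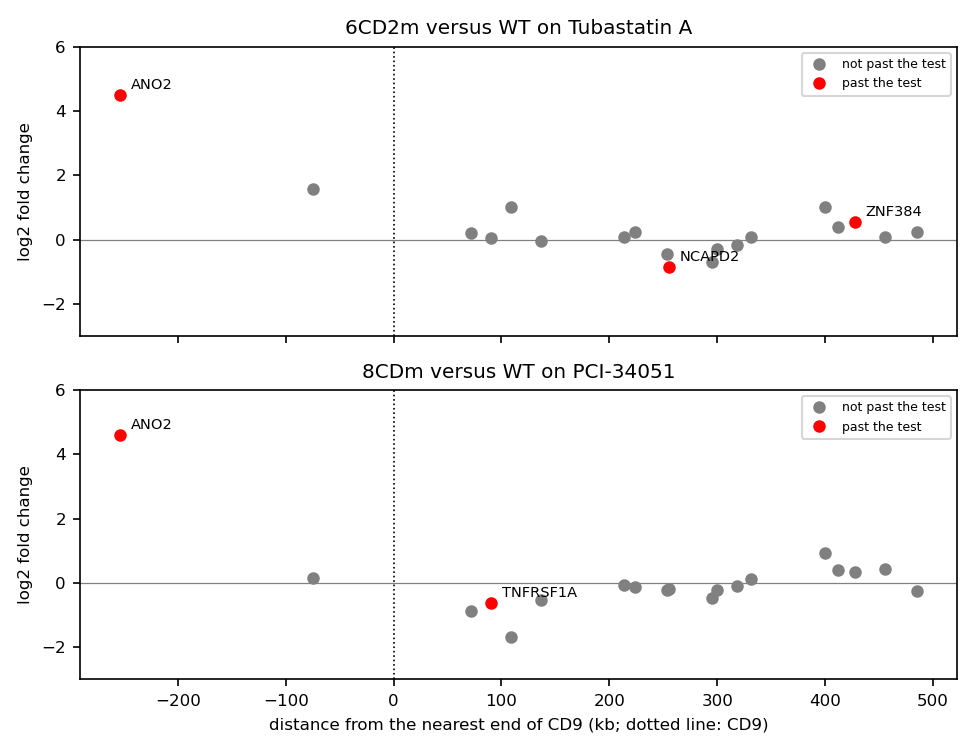
Log2 fold changes (y axis) of the tested protein-coding genes within 500 kb of CD9 against their distance from the nearest end of CD9 in kb (x axis; dotted line, CD9), in 6CD2m against WT cells on Tubastatin A (top) and 8CDm against WT cells on PCI-34051 (bottom). Red points passed the false discovery rate of 0.001, and ANO2 is the highest in both, at 4.51 and 4.61. The values of ANO2 are descriptions, since it passed the filter on low counts through 6CD2m and 8CDm cells alone.

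Genes with levels most like those of CD9 over the 15 libraries were ranked by the Pearson r of log2 CPM, among genes with an average log2 CPM of at least 1. The first 5 were CXCL8 (r = 0.988), SRP9P1 (0.978), S100A6 (0.977), WDFY2 (0.974) and CLIC1 (0.974). They were found by this ranking, so r is a description, and the libraries of a group share their line and treatment. CXCL8, the chemokine interleukin-8, was at 21.0 ± 3.61 CPM (SD, n = 3) in WT cells on Tubastatin A, 6.49 ± 1.16 CPM in WT cells on PCI-34051, 8.40 ± 0.351 CPM in 6CD1m, 0.545 ± 0.107 CPM in 6CD2m and 0.330 ± 0.0563 CPM in 8CDm cells. S100A6, a calcium-binding protein, ran between 172 and 419 CPM in the group means, lowest in 8CDm and 6CD2m cells. SRP9P1 is named as a pseudogene, and some of its reads may belong to the gene it was copied from.

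The nearest genes by the same measure for CD82 were TSPAN18 (r = 0.941) and EPHB3 (0.939). For CD151 they were AP2S1 (0.964) and ATP6V0B (0.953), for TSPAN4 MICAL1 (0.976) and NLRC5 (0.975), and for TSPAN3 FAM49A (0.986) and CNIH1 (0.974). CD63 was most like SLC1A5 (0.958) and CD55 (0.942), CD81 most like PDIA4 (0.937) and DPYSL2 (0.933), and TSPAN14 most like STRIP2 (0.935) and TBC1D2B (0.917). TSPAN9 had the lowest values, with RP11-305O6.3 (0.828) and DAAM2 (0.773). Among the members themselves CD9 correlated most with CD151 (r = 0.834) and TSPAN4 (0.715).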

How the data were processed

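The authors deposited expected counts, which are estimates and can be fractions, for 60675 genes in 15 libraries, without normalization. The submitters' processing notes name Trimmomatic 0.39, Bowtie2 2.4.5, RSEM 1.3.3, DESeq2 1.38.2 and GRCh38. The annotation release and the use of strand are not given in the sources used here. Fractions made up 21.8% of the nonzero values, and counts were rounded to whole numbers. No column of values was left out. Totals per library were 10932437 to 19983699 counts. Positions, lengths and GC content came from GENCODE 29, which matched 57055 genes by identifier.

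The labels gave each library's group and replicate number. Differences were tested with edgeR 4.0.16 and limma 3.58.1 under R 4.3.3 (filter on low counts, TMM, 1 model with a mean per group, quasi-likelihood test, Benjamini-Hochberg adjustment over 19535 genes, false discovery rate 0.001), after a test on simulated data. The common biological coefficient of variation was 16.4%. CPM use TMM-scaled library sizes, and correlations use log2(CPM + 0.5). Replicates correlated with r of 0.962 to 0.988 and differed by more than counting noise, so none was counted as a repeat. The labels do not say how the cultures were separated, so p-values measure the spread between these samples. Between the WT groups the deviations of the libraries from their group means correlated at 0.505, 0.235 and 0.169 for replicates 1, 2 and 3 of the same number. Tubastatin A replicate 3 and PCI-34051 replicate 2 correlated at 0.254, so replicate 1 was matched by number and replicates 2 and 3 were not. Between the KDAC6 lines replicates 1, 2 and 3 of the same number correlated at 0.189, 0.028 and 0.057. There 6CD2m replicate 2 and 6CD1m replicate 3 correlated at 0.114, so at most replicate 1 was matched, and more weakly. In the comparisons of a mutant line with WT cells the numbers did not pair the libraries.

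The members, lists and tests were chosen with earlier results of these data known. Named are the 9 members, called genes of each list (at most 4 per list and comparison, by size of change), other tetraspanins with a mean of at least 10 CPM in some group, protein-coding genes within 500 kb of CD9 with at least 1 CPM, and the genes nearest in level, 5 for CD9 and 2 for each other member. Alternatives were DESeq2 1.42.0, other scalings and filters, a false discovery rate of 0.05, GC offsets, the replicate block, a fit of only the libraries compared, and leaving out each replicate.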

Additional observations from a re-analysis of the deposited data

Results flagged for a closer look

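The effect in 6CD2m cells (against WT cells on Tubastatin A) and that in 8CDm cells (against WT cells on PCI-34051) differed by the interaction term of edgeR's test for 5 genes of the lists examined. The differences on the log2 scale, as the effect in 6CD2m minus that in 8CDm cells, were 5.69 for TSPAN15 (SE 0.88, edgeR adjusted p = 2.9e-04), 5.48 for TSPAN18, 2.01 for ITGB4, -1.03 for EGFR and -1.30 for VPS4B. Line, inhibitor and duration enter this difference together and cannot be told apart. TSPAN15 had 3 counts in all in 8CDm cells, so its fitted value depends on the prior count and is no bound. Leaving out each of the 12 libraries in turn, the difference was called in 12 fits for TSPAN18 and ITGB4, 9 for TSPAN15, 7 for VPS4B and 1 for EGFR.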

How the results depend on the processing

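With the replicate number as a block, no member was called for the WT groups on either inhibitor, where the numbers matched replicate 1 only, as without it (0 of 8). Of the other comparisons, the block changed the count between the KDAC6 lines, from 1 to 0. There the numbers matched at most replicate 1, and more weakly. The numbers of members called were 0 in 6CD2m against WT cells, 0 in 6CD1m against WT cells, 1 in 8CDm against WT cells, 1 between the KDAC6 lines, 0 between the WT groups and 0 for the difference of the effects. At a false discovery rate of 0.05 they were 3, 1, 3, 3, 0 and 1. In 6CD2m against WT cells the count was 1, CD82, with upper-quartile scaling, DESeq2, no filter, at least 10 counts in every library or GC offsets, and 0 to 1 when a replicate was left out. In 8CDm against WT cells it was 2 with DESeq2, 0 with GC offsets, with or without the block, and 0 with only the libraries compared. Leaving out a replicate gave 0 to 1 there and 0 to 1 between the KDAC6 lines. Between the KDAC6 lines it was 0 with GC offsets, with or without the block, and with only the libraries compared. DESeq2 called 1 member for the difference of the effects. TSPAN4 in 8CDm cells lost its call without 8CDm replicate 1 or 2 or WT replicate 2 or 3, and between the KDAC6 lines without 6CD1m replicate 1 or 2 or any 6CD2m replicate, with log2 fold changes from -0.65 to -0.55. Causes other than the smaller number of libraries were not tested. No called value changed direction. Alternatives for the other lists, the genes around CD9 and the scaling of CD9 were added after seeing the data. Over the alternatives at either false discovery rate, 0 to 10 of the 17 other tetraspanins, 2 to 11 of the 20 surface genes and 2 to 4 of the 14 vesicle genes were called in 6CD2m against WT cells. In 8CDm against WT cells they were 0 to 7, 0 to 5 and 1 to 4, and between the KDAC6 lines 0 to 8, 2 to 14 and 0 to 10. With at least 10 counts in every library TSPAN18 was not tested, since it had 7, 12 and 7 counts in 8CDm cells. Fewer than 17 other tetraspanins were thus tested there. In the 14 alternative analyses that did test it, TSPAN18 was called in 14 in 6CD2m against WT cells and in 14 between the KDAC6 lines. In 8CDm against WT cells it was called in 13 of 14. CD9 has at most 181 counts in a library, which limits its precision.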
